A study of Homo sapiens with 10 samples.

Results

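The genes described here are those by which a cell makes, stores, senses and destroys the transmitter acetylcholine: the cholinesterase genes BCHE and ACHE, the synthesis, transport and storage genes CHAT, SLC5A7 and SLC18A3, the nicotinic receptor subunit genes CHRNA3, CHRNA5, CHRNA7 and CHRNB2, and the muscarinic receptor gene CHRM3. They were compared between SH-SY5Y cells stably transfected with SOD1(G93A), a mutant superoxide dismutase of familial amyotrophic lateral sclerosis, and SH-SY5Y cells stably transfected with wild-type SOD1. SH-SY5Y is an established human neuroblastoma line, both lines were kept in Geneticin (G418), and each was measured on 5 arrays. The SOD1(G93A) arrays carry the sample numbers 3, 9, 12, 15 and 18 in their titles, and the wild-type SOD1 arrays 2, 8, 11, 14 and 17. The sources do not say whether a line was a clone or a pool, or whether its samples were grown apart, so the spread between arrays may be technical and the construct and any other difference between the lines cannot be told apart. A gene entered through a probe set whose platform annotation names it and no other gene, and the brightest such probe set over all 10 arrays was used. That left 9 of the 10 genes, each with 1 such probe set, among 14232 named genes and 22011 probe sets in all. CHRNA7 was annotated on 2 probe sets, both shared with another gene, and was not analysed here.

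Acetylcholine is made from choline and acetyl-CoA by choline acetyltransferase, packed into synaptic vesicles by its vesicular transporter, and released onto nicotinic receptors, which are ion channels, and muscarinic receptors, which signal through G proteins. Acetylcholinesterase ends the signal at the synapse, while butyrylcholinesterase, a related serine hydrolase with broader substrate use, is abundant in plasma and glia. Spinal motor neurons, the cells lost in amyotrophic lateral sclerosis, are cholinergic, whereas SH-SY5Y cells have mainly a noradrenergic character.

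The genes were chosen with the difference between the 2 lines already known, and were selected on the values of BCHE, SLC18A3 and CHRNA3 in that contrast, so their differences are given as a description and support nothing further. Levels are the authors' log2 intensities. A gene is said to have risen or fallen where the limma fit over all probe sets gave an adjusted p of 0.05 or less. On that rule 2 of the 9 genes rose and 1 fell in the SOD1(G93A) line. Among all named genes 9.60% were called, 4.03% higher and 5.57% lower. With the labels' further demand of a log2 difference of 1 or more in size, BCHE and SLC18A3 were left, and 1.18% of all named genes passed it. The median log2 fold change of the 9 genes was 0.13, against −0.0043 over all named genes, and their median absolute change was 0.22, against 0.086.

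The sequences upstream of the 3 genes that rose or fell, and of ACHE, show how unlike the promoters of the 2 cholinesterase genes are. They are the 250 bases before the first RefSeq transcription start listed for each gene in build GRCh38.p14, written in the direction of transcription, and 9 of the 10 genes had an entry. BCHE lies at chr3:165837424-165837673 on the minus strand, ACHE at chr7:100895889-100896138 on the minus strand, SLC18A3 at chr10:49610060-49610309 on the plus strand and CHRNA3 at chr15:78620997-78621246 on the minus strand. Capitals mark, on either strand, the GC box GGGCGG, the CCAAT box, the TATA box TATAAA and the core TGACG of the cyclic AMP response element. Overlapping matches of one motif were counted singly, and no match of one motif overlapped a match of another in these 4 sequences.
BCHE: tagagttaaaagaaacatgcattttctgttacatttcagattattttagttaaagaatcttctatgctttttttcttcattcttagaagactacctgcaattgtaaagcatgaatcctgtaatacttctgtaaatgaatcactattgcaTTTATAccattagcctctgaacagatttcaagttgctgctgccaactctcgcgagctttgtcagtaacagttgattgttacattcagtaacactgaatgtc
ACHE: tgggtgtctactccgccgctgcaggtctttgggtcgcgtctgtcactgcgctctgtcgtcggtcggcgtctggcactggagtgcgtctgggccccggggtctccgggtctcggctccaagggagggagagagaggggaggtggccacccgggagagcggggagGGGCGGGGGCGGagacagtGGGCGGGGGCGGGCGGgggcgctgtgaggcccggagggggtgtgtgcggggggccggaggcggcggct
SLC18A3: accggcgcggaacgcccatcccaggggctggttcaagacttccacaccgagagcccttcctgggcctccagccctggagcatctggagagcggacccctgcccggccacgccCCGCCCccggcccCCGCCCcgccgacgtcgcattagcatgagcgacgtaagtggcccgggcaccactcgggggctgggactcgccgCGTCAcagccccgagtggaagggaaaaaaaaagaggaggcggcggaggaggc
CHRNA3: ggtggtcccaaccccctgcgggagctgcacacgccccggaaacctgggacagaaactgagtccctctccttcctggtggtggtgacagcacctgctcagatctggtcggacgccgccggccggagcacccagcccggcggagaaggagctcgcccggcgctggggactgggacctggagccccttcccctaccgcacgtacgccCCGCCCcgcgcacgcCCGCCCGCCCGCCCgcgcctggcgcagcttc

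The BCHE sequence had a GC content of 33.2% and 2 CpG dinucleotides, and only 3.61% of the 35116 promoter entries had a lower GC content. It held 1 match to the TATA box in reverse orientation and none to the other 3 motifs. The ACHE sequence had a GC content of 75.2% and 26 CpG dinucleotides, and held 5 matches to the GC box. ACHE had other listed starts, whose upstream sequences had GC contents of 61.2% and 71.6%. In that order, they held 18 and 19 CpG dinucleotides and 0 and 1 matches to the GC box. The SLC18A3 sequence, 70.8% GC, held 2 GC boxes and 1 response element core, and that of CHRNA3, 73.6% GC, held 4 GC boxes. Over all entries, 42.6% held the GC box, 32.0% the CCAAT box, 10.7% the TATA box and 21.2% the response element core. Such matches describe the letters of the reference and are not evidence of binding.

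The 2 cholinesterase genes differed in their change between the lines. BCHE, which encodes butyrylcholinesterase, measured 6.30, 6.40, 5.71, 6.24 and 6.43 in SOD1(G93A) samples 3, 9, 12, 15 and 18, against 2.79, 2.52, 2.57, 2.52 and 3.14 in wild-type SOD1 samples 2, 8, 11, 14 and 17. Every SOD1(G93A) array was far above every wild-type array, and sample 12 was the lowest of its group. The means were 6.22 ± 0.29 in SOD1(G93A) and 2.71 ± 0.27 in wild-type SOD1 arrays (SD, n = 5 each), a log2 fold change of 3.51 (SE 0.16, 95% interval 3.16 to 3.86) or 11.4-fold, with an adjusted p of 2.73e-07 by limma. This was the seventh largest absolute change among the 14232 named genes. All 5 wild-type values were under the lower quartile of their arrays, which ran from 3.84 to 3.89. RMA compresses differences at that level and no detection calls are given, so the fold may be understated.

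ACHE, which encodes acetylcholinesterase, measured 6.42, 6.33, 6.37, 6.41 and 6.34 in SOD1(G93A) samples 3, 9, 12, 15 and 18, against 6.28, 6.34, 6.25, 6.40 and 6.33 in wild-type SOD1 samples 2, 8, 11, 14 and 17. The groups overlapped. The means were 6.37 ± 0.04 in SOD1(G93A) and 6.32 ± 0.06 in wild-type SOD1 arrays (SD, n = 5 each), with a log2 fold change of 0.05 (SE 0.05, 95% interval −0.06 to 0.16; adjusted p = 0.675 by limma). The interval holds a rise of at most 0.16 and a fall of at most 0.06 on the log2 scale. The 2 fold changes differed by 3.46 on the log2 scale, and the within-array difference between the 2 genes had a pooled SD of 0.29 over arrays. Because the pair was chosen with its difference known, no test of that difference is given. COLQ and PRIMA1, which anchor cholinesterases to the basal lamina and to membranes, were not called. PRIMA1 (5.79 ± 0.06 in SOD1(G93A) and 5.86 ± 0.16 in wild-type SOD1 arrays, SD, n = 5 each; log2 fold change −0.07, SE 0.08) was at −0.01 without wild-type SOD1 sample 17.

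**Figure D1:**
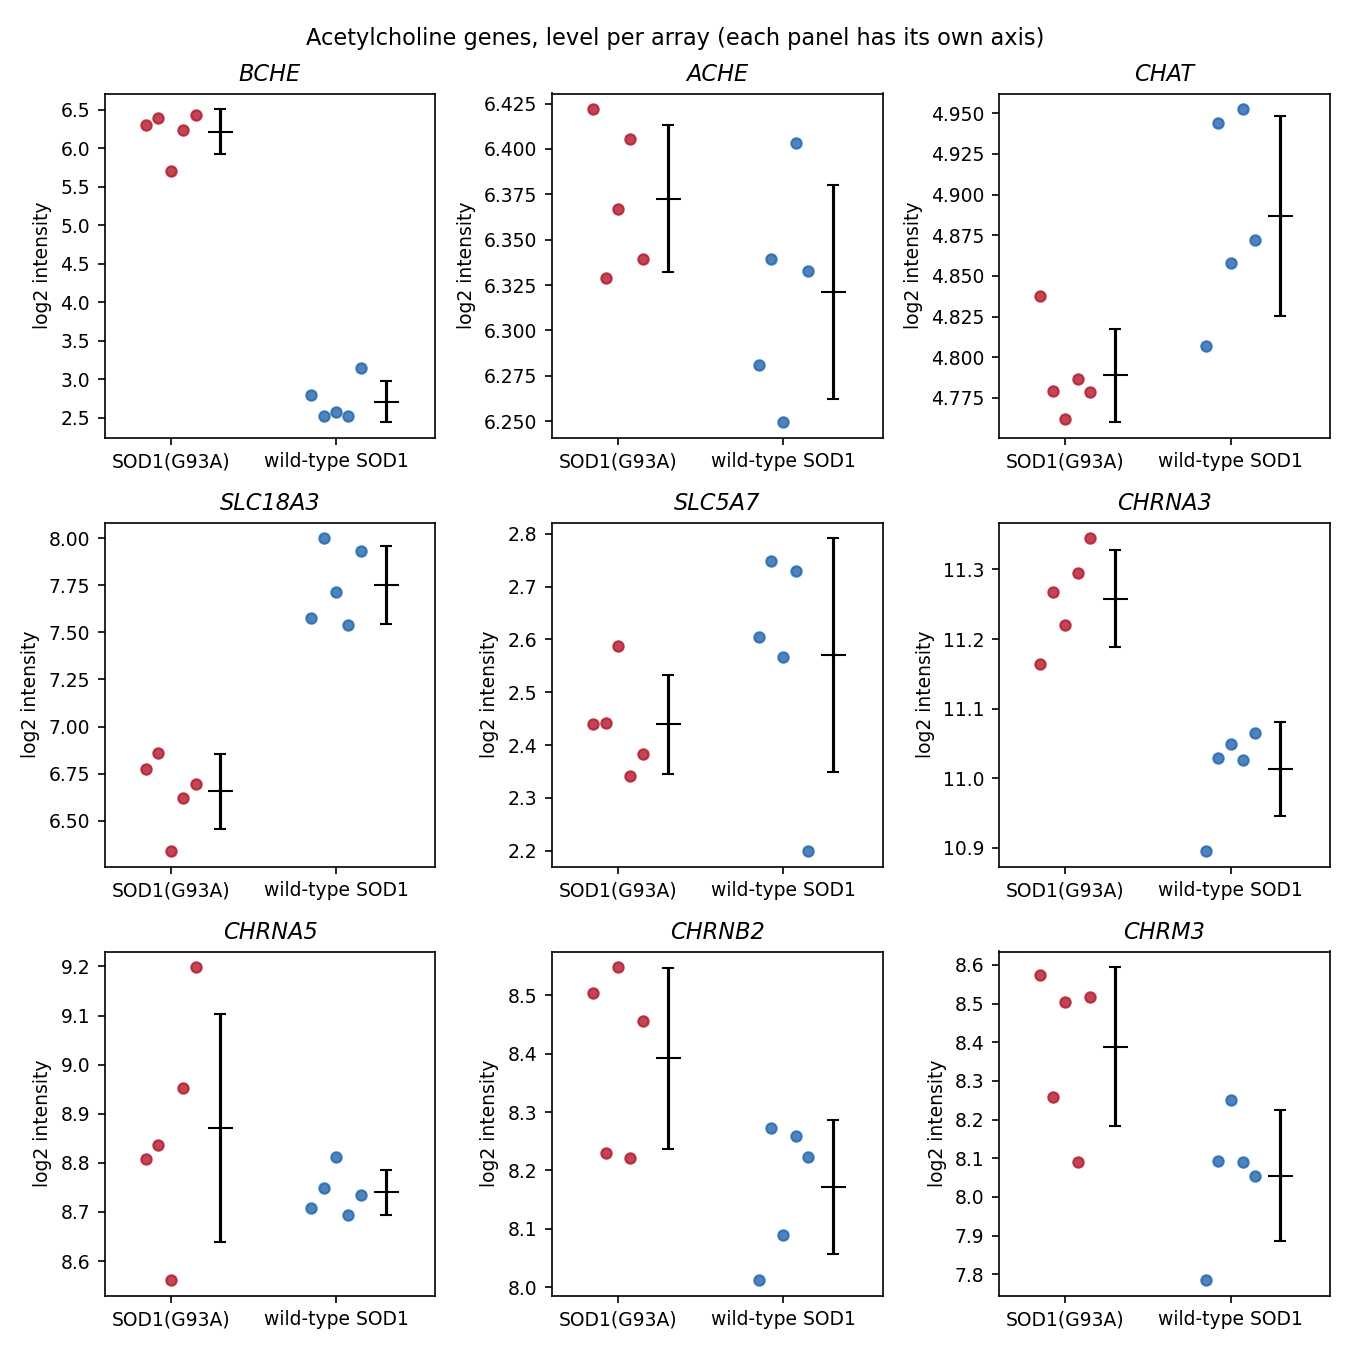
Log2 intensity of the 9 measured acetylcholine genes on each array (points; SOD1(G93A) left in red, wild-type SOD1 right in blue; bars give the mean ± SD of 5 arrays; each panel has its own vertical axis). The groups are apart for BCHE, SLC18A3 and CHRNA3 and overlap for the other 6 genes.

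Of the genes that make and store acetylcholine, SLC18A3 fell in the SOD1(G93A) line and CHAT and SLC5A7 were not called. SLC18A3, the vesicular acetylcholine transporter gene, measured 6.78, 6.86, 6.34, 6.62 and 6.69 in SOD1(G93A) samples 3, 9, 12, 15 and 18, against 7.58, 8.00, 7.72, 7.54 and 7.93 in wild-type SOD1 samples 2, 8, 11, 14 and 17. The highest SOD1(G93A) array lay below the lowest wild-type array. The means were 6.66 ± 0.20 in SOD1(G93A) and 7.75 ± 0.21 in wild-type SOD1 arrays (SD, n = 5 each), and SLC18A3 was 2.14-fold lower (log2 fold change −1.09, SE 0.12, 95% interval −1.36 to −0.83; adjusted p = 0.00018 by limma).

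CHAT encodes choline acetyltransferase, and the SLC18A3 gene lies within its span. CHAT measured 4.84, 4.78, 4.76, 4.79 and 4.78 in SOD1(G93A) samples 3, 9, 12, 15 and 18, against 4.81, 4.94, 4.86, 4.95 and 4.87 in wild-type SOD1 samples 2, 8, 11, 14 and 17. Only SOD1(G93A) sample 3 reached into the wild-type range. The log2 fold change of CHAT was −0.10 (SE 0.05, 95% interval −0.20 to 0.01; adjusted p = 0.322 by limma). A second probe set annotated to CHAT and another gene was not used, and which probes of the CHAT probe set are shared with the SLC18A3 transcript was not examined.

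SLC5A7, the high-affinity choline transporter of cholinergic terminals, was under the lower quartile on all 10 arrays. It measured 2.44, 2.44, 2.59, 2.34 and 2.38 in SOD1(G93A) samples 3, 9, 12, 15 and 18, against 2.60, 2.75, 2.57, 2.73 and 2.20 in wild-type SOD1 samples 2, 8, 11, 14 and 17. At that level a difference between the lines is hardly measurable (log2 fold change −0.13, SE 0.10, adjusted p = 0.576 by limma). Without wild-type sample 17, the lowest of all arrays, the log2 fold change was −0.22 (adjusted p = 0.105).

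**Figure D2:**
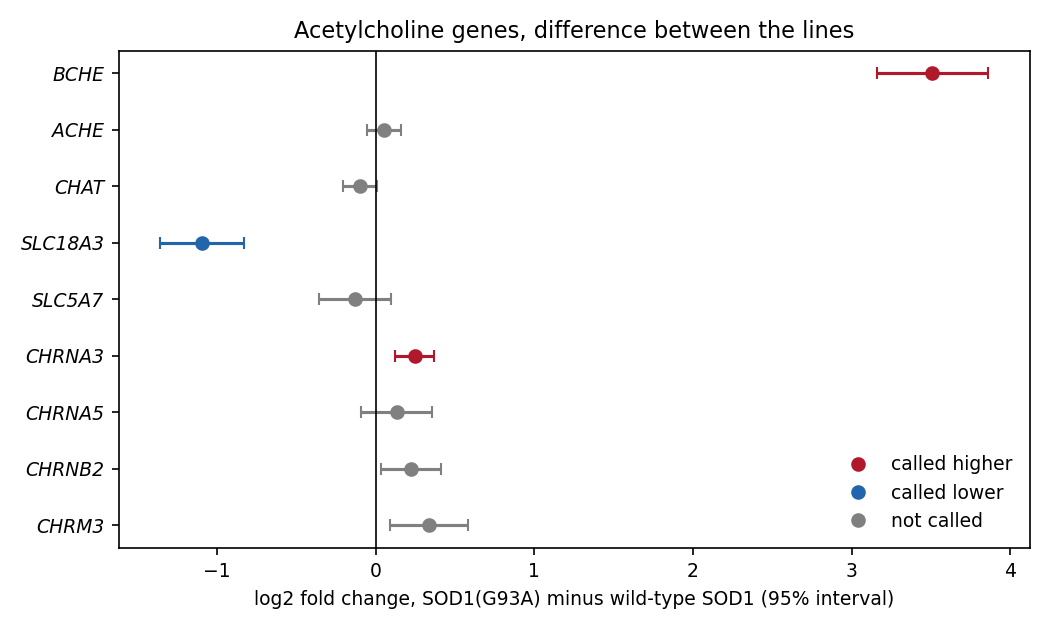
Log2 fold change of each measured acetylcholine gene, SOD1(G93A) minus wild-type SOD1 (points, with the 95% interval from the limma fit, n = 5 each; red rose, blue fell, grey not called). BCHE stands at 3.51 and SLC18A3 at −1.09, and the other 7 genes lie between −0.13 and 0.33.

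Of the 4 measured receptor genes CHRNA3 rose in the SOD1(G93A) line. All 4 had positive log2 fold changes, of at most 0.33, and the other 3 were not called. CHRNA3 encodes the nicotinic alpha subunit typical of autonomic ganglia. It measured 11.16, 11.27, 11.22, 11.29 and 11.35 in SOD1(G93A) samples 3, 9, 12, 15 and 18, against 10.90, 11.03, 11.05, 11.03 and 11.07 in wild-type SOD1 samples 2, 8, 11, 14 and 17. The groups did not overlap, and the gap between the lowest SOD1(G93A) and the highest wild-type array was narrow. The means were 11.26 ± 0.07 in SOD1(G93A) and 11.01 ± 0.07 in wild-type SOD1 arrays (SD, n = 5 each; log2 fold change 0.25, SE 0.06, adjusted p = 0.021 by limma). The call was lost without SOD1(G93A) sample 9 (adjusted p = 0.0502), SOD1(G93A) sample 15 (0.0576) or wild-type SOD1 sample 2 (0.0504). With BCHE and SLC18A3, that makes 3 of 9 genes whose groups did not overlap, against 11.4% of all named genes.

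CHRNA5, an accessory nicotinic subunit gene next to CHRNA3, measured 8.81, 8.84, 8.56, 8.95 and 9.20 in SOD1(G93A) samples 3, 9, 12, 15 and 18, against 8.71, 8.75, 8.81, 8.69 and 8.74 in wild-type SOD1 samples 2, 8, 11, 14 and 17. The SOD1(G93A) arrays spread on both sides of the wild-type ones, with an SD of 0.23 in SOD1(G93A) and 0.05 in wild-type SOD1 arrays, and the log2 fold change was 0.13 (SE 0.10, adjusted p = 0.568 by limma). Sample 12 was lowest and sample 18 highest; the log2 fold change was 0.21 without sample 12 and 0.05 without sample 18. The spans of CHRNA3 and CHRNA5 overlap in the RefSeq gene table, so signal from probes in the overlap, if there are any, cannot be assigned to one of them. CHRNB4, the beta subunit gene of the same cluster, was named after its values were seen and had a log2 fold change of 0.02 (SE 0.08; 8.72 ± 0.13 in SOD1(G93A) and 8.69 ± 0.12 in wild-type SOD1 arrays, SD, n = 5 each), with a sign that turned on leaving out SOD1(G93A) sample 3 or wild-type SOD1 sample 2.

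CHRNB2, the beta subunit of the main brain nicotinic receptor, measured 8.50, 8.23, 8.55, 8.22 and 8.46 in SOD1(G93A) samples 3, 9, 12, 15 and 18, against 8.01, 8.27, 8.09, 8.26 and 8.22 in wild-type SOD1 samples 2, 8, 11, 14 and 17. Samples 9 and 15 lay among the wild-type values, and the other 3 SOD1(G93A) arrays lay above them. The log2 fold change was 0.22 (SE 0.09, adjusted p = 0.183 by limma). CHRM3, a muscarinic receptor that couples to Gq proteins, measured 8.57, 8.26, 8.50, 8.09 and 8.52 in SOD1(G93A) samples 3, 9, 12, 15 and 18, against 7.79, 8.09, 8.25, 8.09 and 8.05 in wild-type SOD1 samples 2, 8, 11, 14 and 17. Only SOD1(G93A) sample 15 lay within the wild-type range. The log2 fold change of CHRM3 was 0.33 (SE 0.11, 95% interval 0.09 to 0.58; adjusted p = 0.116 by limma). It would be called without SOD1(G93A) sample 15, with a log2 fold change of 0.41 and an adjusted p of 0.0468.

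Once the group means were removed, some of these genes moved together from array to array. Over the 10 arrays, the correlation of the remaining deviations was 0.74 for CHRNB2 with CHRM3, 0.76 for ACHE with CHAT, 0.60 for CHRNA3 with CHRNA5 and 0.60 for BCHE with SLC18A3. BCHE and SLC5A7 had −0.82, though SLC5A7 was under the lower quartile on all 10 arrays and BCHE on 5. The pairs named are those with the largest values in size among all pairs of the 9 genes. These values describe 10 arrays that share their processing and carry no test. SOD1(G93A) sample 12 was the lowest of its group for 4 of the 9 genes, BCHE, CHAT, SLC18A3 and CHRNA5, and wild-type SOD1 sample 2 was the lowest of its group for CHAT, CHRNA3, CHRNB2 and CHRM3.

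The rest of the pathway was read from 9 lists with 83 further genes, of which 70 were measured. Of these 10 rose and 5 fell, or 21.4%, against 9.60% of all named genes. Their median log2 fold change was 0.0016. Like the members, the lists were chosen with earlier results of these data known. This share and those of the single lists below are therefore a description and support nothing further. The calls lay mainly downstream of the receptors and among regulators of cholinergic fate. None of the 9 other nicotinic subunits was called by limma, and 1 of them, CHRNA2, had an unadjusted p under 0.05, with a log2 fold change of 0.21 (SE 0.09; 4.80 ± 0.14 in SOD1(G93A) and 4.59 ± 0.15 in wild-type SOD1 arrays, SD, n = 5 each). Among the nicotinic subunits CHRNA6 and CHRNB3 were under the lower quartile on all 10 arrays, CHRNA1 on 8 and CHRNA9 on 7. At that level a difference could hardly be called. None of the 4 other muscarinic receptors was called, and 2 had an unadjusted p under 0.05. Farthest from 0 among them was CHRM2, a receptor that couples to inhibitory G proteins. It measured 2.85, 1.58, 1.92, 2.63 and 2.96 in SOD1(G93A) samples 3, 9, 12, 15 and 18, against 2.72, 3.02, 3.98, 2.92 and 4.85 in wild-type SOD1 samples 2, 8, 11, 14 and 17. The groups overlapped, 8 of the 10 values were below the lower quartile, and the log2 fold change was −1.11 (SE 0.42, adjusted p = 0.175 by limma).

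Downstream of Gq-coupled receptors, 5 of 11 measured genes rose and 2 fell, a called share of 63.6% against 9.60% of all named genes. PLCB4, a phospholipase C beta that Gq activates, averaged 7.32 ± 0.17 in SOD1(G93A) and 6.53 ± 0.10 in wild-type SOD1 arrays (SD, n = 5 each) and rose by 0.79 on the log2 scale (SE 0.09, adjusted p = 0.00018 by limma). Its relative PLCB1 rose by 0.35 (SE 0.06). The inositol trisphosphate receptor gene ITPR3 rose by 0.55 (SE 0.08), while ITPR1, of the same family, fell by 0.33 (SE 0.08). RGS4, which shortens Gq and Gi signals, rose by 0.46 (SE 0.08). Of the channel genes of the M-current, which muscarinic receptors inhibit, KCNQ3 fell by 0.58 (SE 0.06; 4.26 ± 0.04 in SOD1(G93A) and 4.84 ± 0.10 in wild-type SOD1 arrays, SD, n = 5 each) and KCNQ5 rose by 0.28 (SE 0.07). The ITPR1 call was lost without any 1 of SOD1(G93A) samples 3, 9 and 15 and wild-type SOD1 samples 2, 11 and 14 (adjusted p up to 0.068). That of KCNQ5 was lost without any 1 of SOD1(G93A) samples 9, 12, 15 and 18 and wild-type SOD1 samples 2, 8 and 17 (adjusted p up to 0.0744).

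Among 12 measured regulators of cholinergic fate, 3 rose and 1 fell, a called share of 33.3% against 9.60% of all named genes. REST, the repressor of neuronal genes that in mammals also acts on the CHAT and SLC18A3 locus, measured 6.75, 6.80, 6.91, 6.96 and 7.09 in SOD1(G93A) samples 3, 9, 12, 15 and 18, against 7.57, 7.43, 7.62, 7.51 and 7.37 in wild-type SOD1 samples 2, 8, 11, 14 and 17. All SOD1(G93A) arrays lay below all wild-type arrays, and REST fell by 0.60 on the log2 scale (SE 0.08, adjusted p = 0.000589 by limma). The homeobox gene GBX2 rose by 1.14 (SE 0.09; 7.23 ± 0.07 in SOD1(G93A) and 6.09 ± 0.18 in wild-type SOD1 arrays, SD, n = 5 each). LIFR, a receptor subunit for the cholinergic differentiation factor LIF, rose by 0.57 (SE 0.09). LHX8, a homeobox gene of forebrain cholinergic neurons, rose by 0.32 (SE 0.07) but was under the lower quartile on all 10 arrays. Its call was lost without SOD1(G93A) sample 15 or wild-type SOD1 sample 2, 11 or 14 (adjusted p up to 0.0601).

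Of 12 measured genes of choline uptake and phosphorylation, which supply a precursor of acetylcholine, 2 rose and 1 fell, a called share of 25% against 9.60% of all named genes. SLC44A2 and SLC44A3, of the choline transporter-like family, rose by 0.43 (SE 0.07) and 0.49 (SE 0.10). PCYT1B, an enzyme that draws choline into phosphatidylcholine, fell by 0.31 (SE 0.08), but was not called without any 1 of SOD1(G93A) samples 3, 9, 12 and 15 and wild-type SOD1 samples 2, 8, 11 and 14 (adjusted p up to 0.109). None of 7 genes of acetyl-CoA supply was called, and 2 had an unadjusted p under 0.05. DLAT, a subunit of pyruvate dehydrogenase, had the largest difference, 0.15 (SE 0.06). Of 9 measured receptor chaperones and Ly6 family modulators 1 was called, LY6E, a share of 11.1% against 9.60% of all named genes. LY6E fell by 0.64 (SE 0.11; 8.78 ± 0.13 in SOD1(G93A) and 9.41 ± 0.22 in wild-type SOD1 arrays, SD, n = 5 each). None of 4 organisers of the neuromuscular junction was called or had an unadjusted p under 0.05, and DOK7 was at −0.13 (SE 0.10) with all arrays and at −0.05 without SOD1(G93A) sample 3. Of these 4, MUSK was under the lower quartile on all 10 arrays, where a difference could hardly be called.

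**Figure D3:**
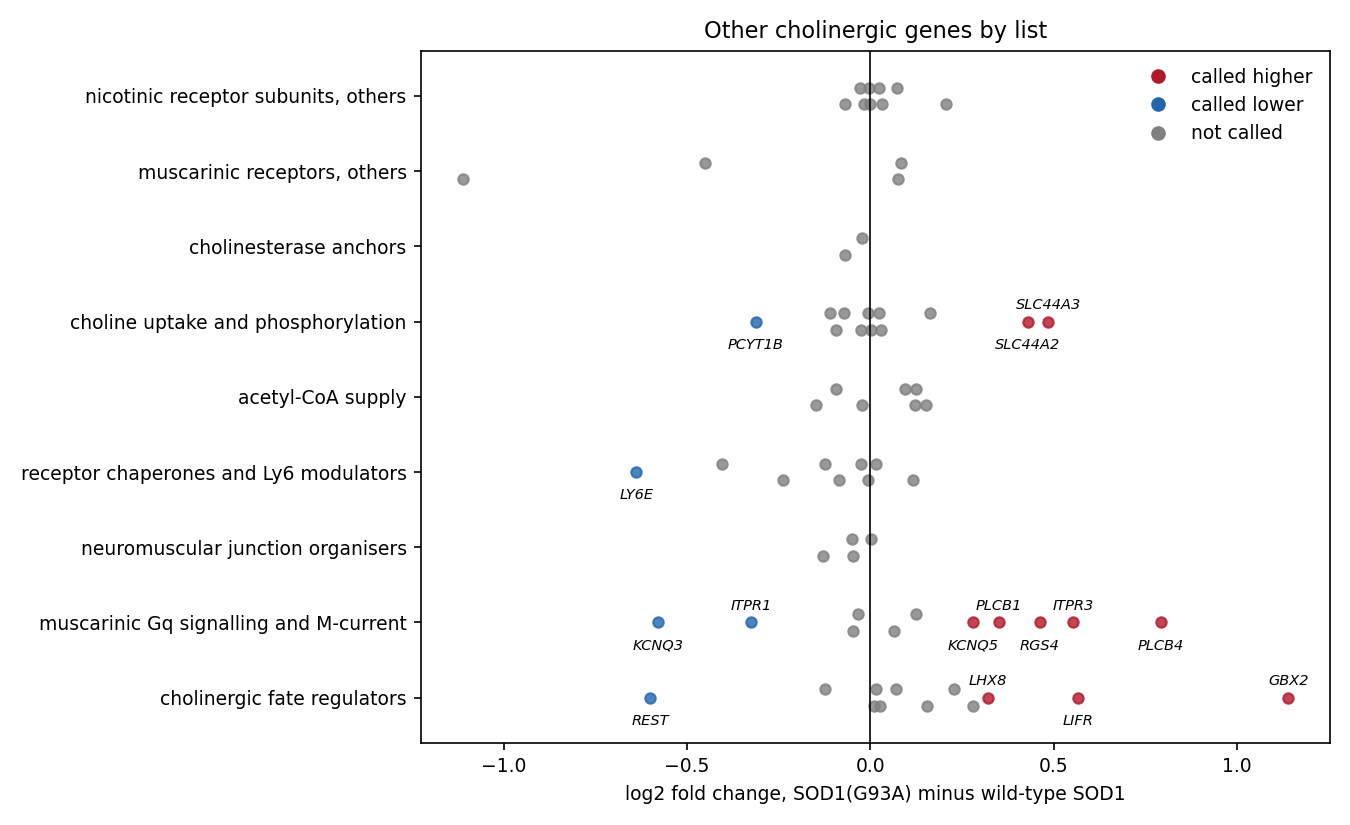
Log2 fold change, SOD1(G93A) minus wild-type SOD1, of the 70 measured genes of 9 further cholinergic lists (points; red rose, blue fell, grey not called, called genes named). The 10 rises and 5 falls lie in 4 of the 9 lists, and GBX2 has the largest of them at 1.14.

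The genes whose profile over the 10 arrays was most like that of BCHE were NID2, EYA4 and ENOX1, with Pearson r of 0.997, 0.997 and 0.995. Those most opposed to it were LMO3, KCNA3 and CABLES1, with r of −0.995, −0.992 and −0.992. Most of this likeness is the difference between the groups: with group means removed, r was 0.84, 0.82 and 0.85 for the first 3 genes and −0.72, −0.74 and −0.58 for the last 3. NID2 averaged 5.91 in SOD1(G93A) and 5.10 in wild-type SOD1 arrays, and LMO3 4.79 in SOD1(G93A) and 8.38 in wild-type SOD1 arrays. For ACHE, the highest r were those of PNLIPRP1 (0.90), HAPLN4 (0.88) and OR2Z1 (0.87), and the lowest those of TMPRSS11E (−0.94), RBAKDN (−0.88) and CRCT1 (−0.87). None of these 6 was called, and the ACHE profile they follow spans under 0.2 log2 units. The means of PNLIPRP1, CRCT1 and TMPRSS11E lay below the lower quartile of the arrays in both lines. These r are the extremes over 14232 genes and 10 arrays and are given as a description.

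In chromosome order, none of the 3 nearest measured genes on either side of BCHE was called higher. SI, SLITRK3, ZBBX, SERPINI2 and PDCD10 were not called, with log2 fold changes from −0.05 to 0.17. The means of SI, SLITRK3, ZBBX and SERPINI2 lay between 2.08 and 3.25 in both lines, below the lower quartile of the arrays, where RMA compresses differences. SPTSSB, the farthest of the 3 on its side, fell by 2.14 (SE 0.13; 4.99 ± 0.27 in SOD1(G93A) and 7.13 ± 0.16 in wild-type SOD1 arrays, SD, n = 5 each). Beside ACHE, none of TRIP6, SRRT, UFSP1, MUC17, TRIM56 and AP1S1 was called. AP1S1 would be called without wild-type SOD1 sample 8 (log2 fold change −0.34 against −0.26 with all arrays, adjusted p = 0.0224). Around SLC18A3, VSTM4 fell by 0.57 (SE 0.06) and OGDHL by 0.36 (SE 0.08), while CHAT, C10orf71, SGMS1 and A1CF were not called. The OGDHL call was lost without SOD1(G93A) sample 9 (adjusted p = 0.0506).

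**Figure D4:**
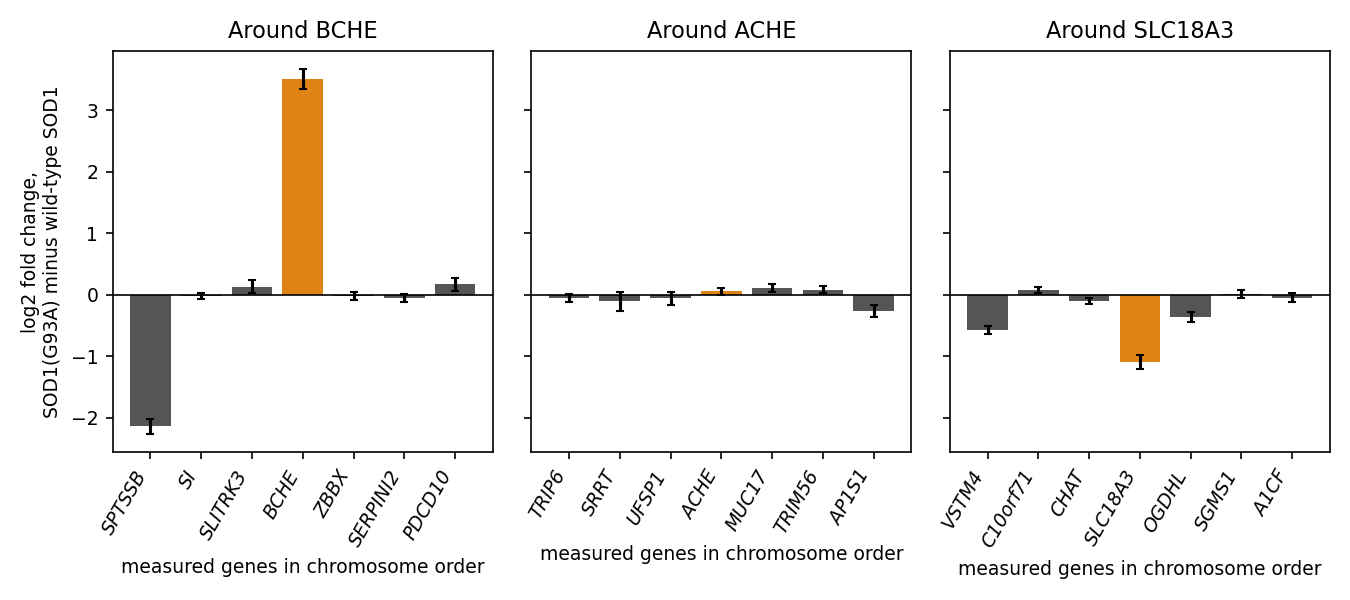
Log2 fold change, SOD1(G93A) minus wild-type SOD1, of BCHE, ACHE and SLC18A3 (orange) and of the 3 nearest measured named genes on each side in the RefSeq order (grey); error bars are the SE of the limma fit, n = 5 each. Around BCHE at 3.51, SPTSSB, the farthest of the 3 on its side, is at −2.14. The other 5 genes there were not called, 4 of them dim in both lines. SLC18A3 at −1.09 has VSTM4 at −0.57 and OGDHL at −0.36 in its vicinity.

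The arrays were alike in overall signal, with medians between 6.26 and 6.34 and correlations of 0.990 to 0.994 within groups and 0.986 to 0.990 between them. Of 9 measured noradrenergic neuroblastoma markers, 8 lay above the median probe set. TH, tyrosine hydroxylase, did not (5.67 ± 0.08 in SOD1(G93A) and 5.59 ± 0.08 in wild-type SOD1 arrays, SD, n = 5 each). Their summed log2 level was 88.4 to 89.5 in SOD1(G93A) and 87.3 to 88.3 in wild-type SOD1 arrays, and 2 rose and 1 fell (33.3% called, against 9.60% of all named genes). CHGA, which encodes chromogranin A, rose by 1.06 (SE 0.12), DDC, aromatic amino acid decarboxylase, rose by 0.28 (SE 0.06), and GATA3, a transcription factor, fell by 0.38 (SE 0.07). Beside the rise of BCHE, which glial cells express, 1 of 6 Schwann and glial markers (16.7%) rose, S100B, and their summed level was 27.5 to 28.8 in SOD1(G93A) and 27.3 to 27.8 in wild-type SOD1 arrays. S100B was dim, at 4.42 ± 0.22 in SOD1(G93A) and 3.69 ± 0.16 in wild-type SOD1 arrays (SD, n = 5 each). It was under the lower quartile on 4 of the 10 arrays, all of them wild-type SOD1. The other glial markers had log2 fold changes from −0.06 to 0.16 and were not called. ERBB3, at 0.16 (unadjusted p = 0.035 by limma), was under the lower quartile on all 10 arrays. No glial marker had a mean above the median probe set. Of 8 markers of the substrate-adherent mesenchymal state 4 rose and 1 fell, a called share of 62.5% against 9.60% of all named genes, with sums of 51.6 to 52.8 in SOD1(G93A) and 50.2 to 52.0 in wild-type SOD1 arrays. VIM rose by 0.37 (SE 0.08), FN1 by 0.46 (SE 0.06), CD44 by 0.47 (SE 0.07) and YAP1 by 0.66 (SE 0.07). SNAI2, with the largest change of the 8, went the other way and fell by 1.03 (SE 0.10). None of 5 hepatocyte, 5 skeletal muscle and 8 immune and endothelial markers was called or had an unadjusted p under 0.05 by limma. The means of 4 of the 5 hepatocyte and 4 of the 8 immune and endothelial markers lay below the lower quartile. At that level a difference could hardly be called. The part of any marker list in the changes of the acetylcholine genes was not tested. Fewer cells of a type and less RNA per cell cannot be told apart in these bulk samples.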

How the data were processed

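RNA of 10 SH-SY5Y samples, 5 per line, was measured on Affymetrix arrays. The deposited values are log2 intensities, 1 per probe set and array; the authors made them with RMA, per the submitters' processing notes, in oneChannelGUI 1.6.5, per the labels. RMA equalises the arrays' distributions, so a shift of all genes together is not visible, and it compresses differences of dim probe sets. No genome build or filter is named there.

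Of 22011 probe sets, 14432 had exactly 1 gene symbol, 2408 several and 5171 none. Symbols were updated through gene identifiers and the RefSeq table of GRCh38.p14, and 28 of the probe sets with 1 symbol were not found in it. Differences are SOD1(G93A) minus wild-type SOD1 from lmFit and eBayes of limma 3.58.1 (R 4.3.3; 2-sided, no filter). P-values were adjusted by Benjamini-Hochberg across the 22011 probe sets and called at the labels' false discovery rate of 0.05. The procedure was tested on simulated data. The number of arrays limits the precision.

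The members and lists were chosen with earlier results of these data known. Named were all members, every called gene of a further list or, with none called, the one with the largest difference, the 3 genes most and least correlated with BCHE and with ACHE, and the 3 nearest measured genes on each side of BCHE, ACHE and SLC18A3. Called markers, and nicotinic subunits mostly under the lower quartile, were named after their values were seen. Alternatives left out arrays, renormalized, dropped dim probe sets, or changed the variance model, the array weights, the threshold or the probe set, or blocked adjacent sample numbers. Promoter sequences are from RefSeq.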

Additional observations from a re-analysis of the deposited data

Results flagged for a closer look

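In 2 of the 18 groups of 5 arrays examined for the 9 measured genes, 1 array stood apart from the other 4, its gap to the nearest of them being more than 0.71 of the range of the group. Chance gives such a gap in about 1 in 20 groups. BCHE measured 5.71 in SOD1(G93A) sample 12, below the next value of 6.24, and remained above every wild-type SOD1 array there. CHRNA3 measured 10.90 in wild-type SOD1 sample 2, below the next value of 11.03. Without that array the CHRNA3 log2 fold change was 0.22 (adjusted p = 0.0504 by limma).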

How the results depend on the processing

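The 2 lines share no sample number, so no same-number pairing exists. Their numbers do run in adjacent pairs (2 and 3, 8 and 9, 11 and 12, 14 and 15, 17 and 18), which the labels do not call pairs. Deviations from the group means correlated at −0.034 to 0.142 within these pairs. Between samples of the 2 lines without adjacent numbers, the deviations correlated at −0.134 to 0.085. With the pairs as a block, a replicate block added after seeing the data, 1213 probe sets were called against 1643 without it, with 1132 called in both fits, and 1 member rose. The calls of CHRNA3, PCYT1B, ITPR1, KCNQ5 and LHX8 were lost (adjusted p = 0.0509, 0.118, 0.0553, 0.0767 and 0.0750 by limma), and no other call among the named acetylcholine genes and neighbours changed. The direction of every one of the 9 measured members held under all alternatives run for it, with BCHE between 3.46 and 3.64 and SLC18A3 between −1.15 and −1.02, and the difference between the BCHE and ACHE fold changes was 3.39 to 3.58. The BCHE and SLC18A3 calls held throughout, though BCHE was too dim for the set above the median level. The count of members that rose, 2, was 1 to 2 when single arrays were left out. It was 1 without samples 17 and 18 together (CHRNA3 adjusted p = 0.066), 1 with the labels' 2-fold threshold added and 1 among the 6 members above the median level, tested alone. Of the other cholinergic genes, 10 rose with all arrays, but 6 did so among the 36 above the median level and 1 with the 2-fold threshold. The 5 that fell were 3 to 5 when single arrays were left out and 0 with the 2-fold threshold. With that threshold, then, 1 of the 70 measured genes was called, against 1.18% of all named genes. The share of all named genes above the median level that rose was not computed. A second probe set could not change a member, since each had 1. Among genes that were not called, leaving out single arrays turned the sign of CHRNB4 (−0.022 to 0.068), SRRT (−0.18 to 0.0041), SGMS1 (−0.0062 to 0.049), OR2Z1 (−0.011 to 0.17), ZBBX (−0.046 to 0.020) and UFSP1 (−0.11 to 0.016), and without samples 17 and 18 together ZBBX was 0.024 and UFSP1 0.059. Without samples 17 and 18 together the calls of KCNQ5, LHX8 and OGDHL were also lost (adjusted p = 0.112, 0.0579 and 0.0783 by limma), and that of PCYT1B was lost in the unmoderated model (adjusted p = 0.0689). The cause was not tested. Signal near background limits SLC5A7, CHRM2, LHX8, SI, SLITRK3, ZBBX, SERPINI2, MUC17, A1CF, C10orf71, PNLIPRP1, CRCT1, TMPRSS11E and the wild-type level of BCHE. It also limits CHRNA1, CHRNA6, CHRNA9, CHRNB3, the wild-type level of S100B and the SOD1(G93A) level of KCNA3. The same holds for ERBB3, MUSK and the hepatocyte, immune and endothelial markers with means below the lower quartile.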
